A study of Mus musculus with 12 samples.

Results

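The transcripts of 47 DNA replication and G1/S genes were followed in Myc-CaP cells given oxaliplatin, interferon γ or both. The 47 genes were taken by symbol for their role, with no cut on measured values, although earlier results of these data were known when they were listed: origin licensing factors, the MCM2-7 helicase and its activators, polymerases, the sliding clamp with its loader, nucleotide enzymes, E2F factors and S phase cyclins. All 47 were found among the 55216 rows of the count table, and all 47 were among the 13177 genes that passed the filter on low counts and were tested. Myc-CaP is an established prostate cancer line of male FVB/NJ mice that overexpresses Myc. Cells were left untreated (Ctrl) or were treated for 48 h with oxaliplatin at 2 μM (Oxali, a platinum drug that crosslinks DNA), with interferon γ (IFNγ) labelled 200 pg (IFN200) or 2000 pg (IFN2000), or with Oxali and either amount of IFNγ (Combo200 and Combo2000). The labels state no volume for the IFNγ amounts. Each of the 6 groups holds 2 libraries of poly(A) RNA. Nothing in the labels says that the 2 came from separate cultures, so the p-values measure only the spread between these libraries.

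Library totals ran from 18749975 to 25931516 counts, and no 2 libraries of a group agreed within sampling noise. Levels are given as CPM, that is, counts divided by the TMM-scaled total of the library and brought to one common total. A count of 0 would allow up to 3 counts, or 0.111 to 0.167 CPM depending on the library, for counting error only. The mouse gene Myc held 2268 to 3835 counts per library, which do not by themselves show overexpression, since no other line was measured here. Of the epithelial markers, Krt8 held 353 to 628 counts, while Krt18 and Cdh1 reached at most 5 and 6 counts and Epcam was at 0 in all 12 libraries. One library, IFN2000 replicate 2, held 289 counts over 9 T cell markers, against 3 to 49 in the others. These included 117 counts of Ifng and 64 of Ptprc. A further library, IFN200 replicate 1, held 201 counts over 6 heart muscle markers. In the other libraries that sum was 15 to 26 without Oxali and 81 to 136 with it, most of it Tnnt2. With Oxali the summed counts were also higher for 6 fibroblast markers (762 to 1007, against 505 to 690) and 6 macrophage markers (32 to 52, against 10 to 25). Of the fibroblast markers Pdgfra was apart (483 to 632 counts, against 221 to 371), Pdgfrb overlapped (270 to 372, against 219 to 334), and Col1a2, Col3a1 and Dcn reached at most 2 counts. Of the macrophage markers Csf1r was at 8 to 19 counts with Oxali and 0 without it, while Adgre1 and C1qa were at 0 in every library. The T cell marker Cd8a was also at 0 in every library. Leaving aside IFN2000 replicate 2, T cell markers summed to 3 to 13 without Oxali and 26 to 49 with it, most of it Lck. The part of such RNA in the results was not tested.

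Groups were taken from the sample titles, which a second label contradicts for the single treatments. The agent field reads Oxali for the IFN200 libraries, IFNγ 200 pg for the IFN2000 libraries and IFNγ 2000 pg for the Oxali libraries. Both labels match for Ctrl and for the combinations. Under the agent labels the names of the 3 single treatments would rotate, and each comparison that uses one of them would answer another question. Comparisons of a combination with Ctrl would not change. The measured values were set beside both labels. The libraries titled Oxali differed from Ctrl in 4590 genes called higher and 4321 called lower (edgeR adjusted p under 0.05), and those titled IFN200, whose agent field reads Oxali, in 15 and 0. Combo200, which holds Oxali under both labels, had 208 genes higher and 33 lower than the libraries titled Oxali, and 4804 higher and 4413 lower than those titled IFN200. Cdkn1a, a cyclin-dependent kinase inhibitor gene, was at 24.0 and 24.8 CPM in Ctrl, 50.4 and 50.5 CPM in Combo200 and 49.6 and 53.6 CPM in Combo2000. It was at 51.0 and 48.1 CPM in the libraries titled Oxali, within or near the range of the combinations, and at 26.9 and 25.6 CPM in those titled IFN200, near Ctrl. In these measures the libraries titled Oxali, and not those with Oxali in the agent field, lay with the combinations. The titles were used throughout.

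As background, a cell licenses its origins in G1, when the origin recognition complex with Cdc6 and Cdt1 loads the MCM2-7 helicase onto DNA. Cyclin-dependent kinases release E2F1 and related factors from the retinoblastoma protein at the G1/S border, and E2F factors then switch on many genes whose products copy DNA. Cdc45 and the GINS complex turn the loaded helicase into a moving one, primase and polymerases lay down DNA behind it, and the clamp PCNA holds the polymerases on. In bulk RNA, fewer cells in a phase of the cycle and less RNA per cell cannot be told apart.

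E2F factors bind DNA words of the kind TTTCCCGC, and promoters of 6 genes that changed with Oxali are shown with these words marked. The stretches come from RefSeq (build GRCm38.p6), are written 5′ to 3′ on the strand of the gene, and lie within 250 bases before a listed start, without annotated exon bases. Capitals mark any of TTTCCCGC, TTTCGCGC, TTTGCCGC and TTTGGCGC on either strand. Dtl, Cdc45 and Pola1 were higher with Oxali, and Rfc5, Rfc1 and Mcm6 were lower. They were chosen, with these matches known, to show genes with and without a word in both directions.
Dtl, chr1:191575545-191575635, minus strand: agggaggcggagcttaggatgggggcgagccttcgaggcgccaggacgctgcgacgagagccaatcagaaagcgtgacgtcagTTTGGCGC
Cdc45, chr16:18812079-18812222, minus strand: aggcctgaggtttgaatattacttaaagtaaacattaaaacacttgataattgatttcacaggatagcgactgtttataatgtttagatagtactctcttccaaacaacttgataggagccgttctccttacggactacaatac
Pola1, chrX:93632156-93632305, minus strand: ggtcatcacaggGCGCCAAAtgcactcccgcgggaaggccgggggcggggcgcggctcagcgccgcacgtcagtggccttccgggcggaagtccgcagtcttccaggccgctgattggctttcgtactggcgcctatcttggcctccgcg
Rfc5, chr5:117389048-117389138, minus strand: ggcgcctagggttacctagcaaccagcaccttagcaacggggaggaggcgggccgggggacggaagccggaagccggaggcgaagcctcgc
Rfc1, chr5:65335671-65335820, minus strand: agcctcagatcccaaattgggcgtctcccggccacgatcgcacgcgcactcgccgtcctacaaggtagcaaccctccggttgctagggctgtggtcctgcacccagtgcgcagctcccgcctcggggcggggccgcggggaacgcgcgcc
Mcm6, chr1:128359706-128359855, minus strand: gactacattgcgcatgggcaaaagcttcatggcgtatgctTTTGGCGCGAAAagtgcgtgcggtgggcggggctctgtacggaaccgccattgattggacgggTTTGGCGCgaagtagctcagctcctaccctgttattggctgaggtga

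One word stood in the Dtl stretch and 1 in that of Pola1, and 3 in that of Mcm6, 2 of which overlap. There was none in those of Cdc45, Rfc5 and Rfc1, nor in the rest of their windows up to 50 bases after the start. RefSeq entries matched 38 of the 47 genes; Ccna2, Ccne2, Gins1, Gins2, Gins4, Gmnn, Mcm4, Pole and Rfc2 had none here. In windows from 250 bases before to 50 after a start, 16 of the 38 genes (42.1%) held an E2F word, against 704 of 27025 genes (2.61%) over all promoters. In the 250 bases before the start alone the shares were 28.9% and 2.16%. The 47 genes were listed as E2F-driven replication genes, so their higher share was in part set by that choice. The words were about as common in both directions of change. They were found in 5 of 12 genes higher with Oxali, 6 of 14 lower and 5 of 12 not called. The word CCAAT, read on both strands, stood in 65.8% of the 38 genes and in 41.1% of all, and TTTGAA, a core of the cell cycle homology region, in 15.8% and 20.2%. A match is a description of letters, not of binding.

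Levels in untreated cells were compared per kilobase of the longest transcript. Rrm2, the small subunit of ribonucleotide reductase, led with 421 and 439 CPM per kb in the Ctrl libraries. Dut, which removes dUTP, followed at 204 and 205, then Pcna at 177 and 182 and Mcm7 at 171 and 177, whose values lay side by side. Mcm10, at 15.8 and 15.6, and Orc1, at 9.49 and 9.77, were near the low end. The lowest was Fen1, the flap nuclease of Okazaki fragments, at 2.25 and 2.07 CPM per kb. Its exons share 84.2% of their bases with the opposite-strand genes Gm10143 and Tmem258. Whether the strand was used in counting is not stated in the sources used here, so its level and changes are uncertain. The same holds for Gins2, which shares 67.3% of its exon bases with Gse1, and in smaller degree for 11 other genes that share over 5%, among them Rfc2 (15.1%), Mcm7 (12.6%), Ccna2 (12.5%) and Cdc45 (5.96%). A processed copy of Pcna, Pcna-ps2, held 293 counts over all libraries, so a small part of the reads of Pcna may have been assigned to it.

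**Figure D1:**
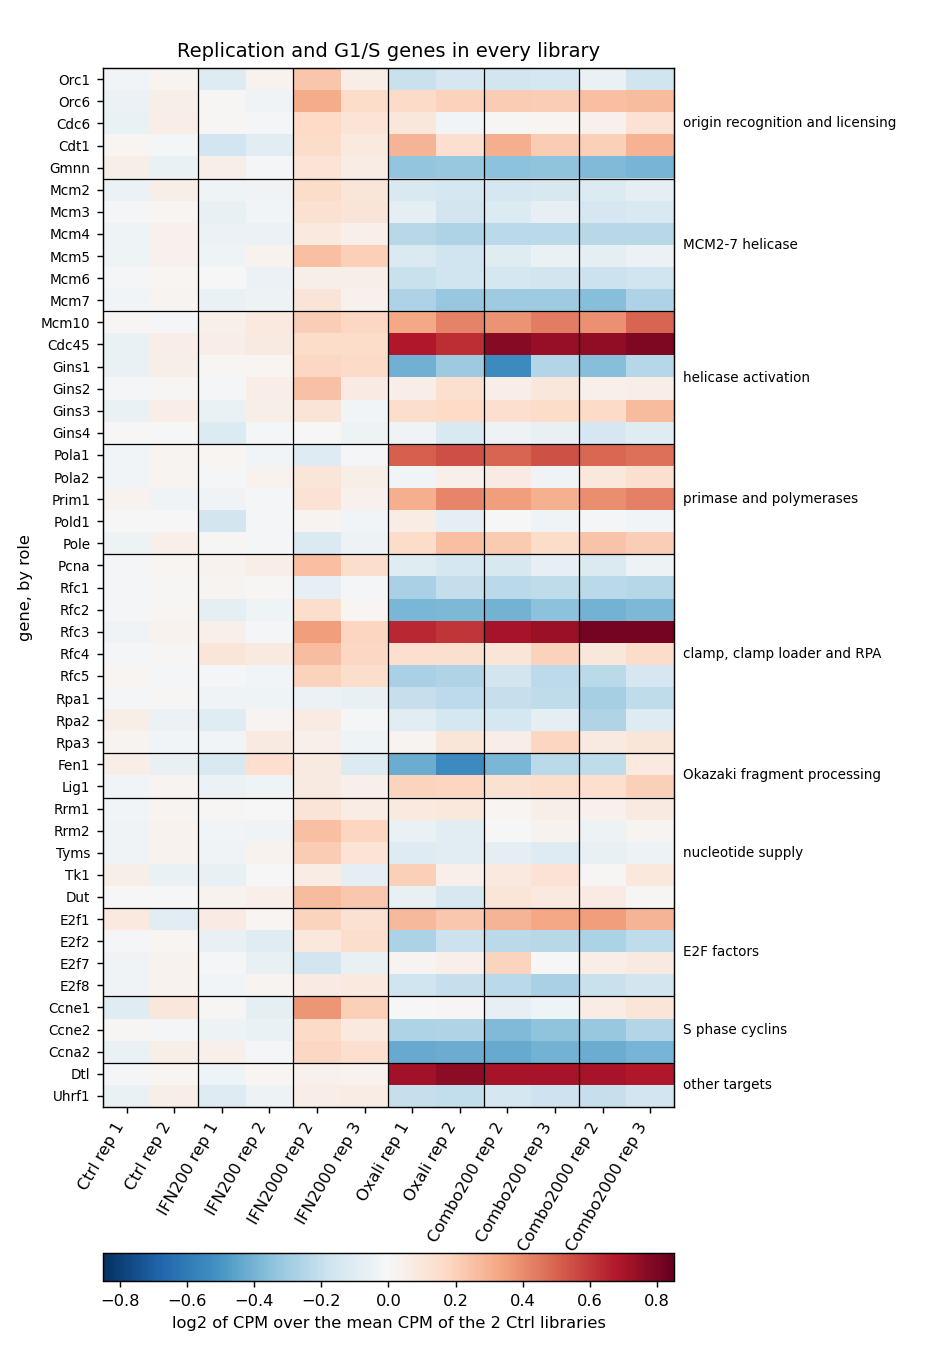
Log2 ratio of the CPM of each of the 47 genes (rows, by role) in each library (columns) to the mean of the 2 Ctrl libraries. The 6 libraries with Oxali look alike, with the highest ratios in Cdc45, Rfc3, Dtl and Pola1 and low ratios in Ccna2, Rfc2, Gins1 and Gmnn, while the IFN2000 libraries are mildly higher in most rows.

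To ask how low-dose Oxali alone changed the replication program, its libraries were compared with Ctrl. Oxali split the program: 13 genes rose and 20 fell, and 14 were not called (edgeR's quasi-likelihood test, Benjamini-Hochberg adjusted p under 0.05). Over all genes tested 34.8% rose and 32.8% fell, so being called was not particular to these genes. Their changes were small. The median over the 47 genes was −0.081 log2, against 0.017 over all genes, and 3 of the 47 changed at least 1.5-fold (Dtl, Cdc45 and Rfc3), against 3769 of the 13177 genes (28.6%). With upper-quartile scaling, which put the median of all genes at 0.070, the split was 15 higher and 15 lower. As a share of unscaled counts the 47 genes rose, from 0.820% and 0.846% in Ctrl to 0.872% and 0.869% in Oxali. Their summed CPM, which is TMM-scaled, was 8551.1 and 8812.1 in Ctrl and 8362.5 and 8255.5 in Oxali. Small falls thus depend on the scaling. Among the 13 genes with over 5% of exon bases shared, 4 rose and 7 fell, and among the other 34, 9 rose and 13 fell.

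Among the genes that load and license origins, the direction differed by gene. Cdt1, which brings the helicase to origins, was at 150.04 and 146 CPM in Ctrl and 181 and 164 CPM in Oxali. As in 42.8% of all genes tested, both Oxali libraries lay above both Ctrl libraries (log2 fold change 0.22, SE 0.051, edgeR adjusted p = 0.000901). With an offset for gene length and GC content the value was 0.087 and the call was lost (edgeR adjusted p = 0.0674). Its inhibitor geminin, encoded by Gmnn, went the other way, from 89.4 and 83.1 to 68.3 and 69.0 CPM, and fell by 20.3% (−0.33, SE 0.045, edgeR adjusted p = 2.57e-06). Orc6 rose by 0.18 log2. Orc1 (−0.17) and Cdc6 (0.037), an ATPase that loads the helicase with Cdt1, were not called, and the interval for Cdc6 ran from −0.070 to 0.14.

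The helicase genes fell, and the factors that start the helicase went in different directions (2 rose, 1 fell and 3 were not called). With TMM scaling all 6 subunits of MCM2-7 fell, by 0.12 (Mcm3) to 0.29 (Mcm7) on the log2 scale. In Combo200 against IFN200 all 6 values lay below 0 but only 4 were called, without Mcm3 (−0.050) and Mcm5 (−0.077). Mcm7 was at 507 and 525 CPM in Ctrl and 431 and 412 in Oxali (edgeR adjusted p = 2.62e-06). Its Oxali libraries lay wholly below Ctrl, as in 40.6% of all genes tested. Mcm2 fell less, from 359 and 384 to 341 and 334 CPM (−0.14, edgeR adjusted p = 0.00376), and lost its call with upper-quartile scaling (−0.14 became −0.087, edgeR adjusted p = 0.0638) and without Ctrl replicate 2 (edgeR adjusted p = 0.107). Over the whole gene list, upper-quartile scaling left 15 called falls where TMM scaling gave 20. Of the helicase genes only Mcm2 was followed there by itself. Whether Mcm3 (−0.12) and Mcm5 (−0.15), whose falls were about as small, kept their calls was not tested. Cdc45, which completes the active helicase, rose from 68.1 and 73.5 to 113 and 109 CPM, 57.1% higher (0.65, SE 0.045, edgeR adjusted p = 1.13e-10). Mcm10, which helps the helicase to open DNA, rose from 76.7 and 75.9 to 95.8 and 102 CPM (0.38, edgeR adjusted p = 8.47e-07). The GINS subunits did not move together. Gins1 fell, from 33.2 and 35.7 to 25.9 and 27.7 CPM (−0.36, edgeR adjusted p = 0.000435), while Gins2 (0.098), Gins3 (0.16) and Gins4 (−0.081) were not called.

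Of the enzymes that begin DNA chains, the catalytic subunits rose, but the rise was not limited to them. Prim2, the second primase subunit, from a list read further below, rose by 0.35 log2 (edgeR adjusted p = 0.000309). Pola1, the catalytic subunit of polymerase α, went from 123 and 127 to 178 and 183 CPM, 44.3% higher (0.53, SE 0.042, edgeR adjusted p = 1.23e-09). Prim1, the primase that makes its RNA starter, went from 81.1 and 77.8 to 98.3 and 106 CPM (0.36, edgeR adjusted p = 1.22e-06). Pole, the leading-strand polymerase, rose by 0.21 log2. Pola2, the second subunit of polymerase α (0.013, interval −0.081 to 0.11), and Pold1, the catalytic subunit of polymerase δ (−0.0065, interval −0.11 to 0.10), were not called.

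The clamp loader, a ring of 5 subunits that sets the clamp on DNA, moved in both directions. Rfc3 rose from 52.2 and 54.6 to 83.4 and 81.2 CPM (0.62, SE 0.053, edgeR adjusted p = 2.62e-09), and Rfc4 by 0.14 log2. Rfc2 went from 117 and 119.7 to 90.2 and 90.8 CPM and fell by 23.5% (−0.39, SE 0.046, edgeR adjusted p = 3.93e-07). Rfc5 (−0.26) and Rfc1 (−0.24) also fell. In each of these genes the Oxali libraries lay wholly on one side of Ctrl, above it as in 42.8% of all genes tested or below it as in 40.6%. The clamp itself, Pcna, fell a little, from 269 and 276 to 254 and 245 CPM (−0.13, edgeR adjusted p = 0.0156). That call was lost with upper-quartile scaling (−0.073, edgeR adjusted p = 0.156), with an offset for gene length and GC content (−0.027, edgeR adjusted p = 0.534), and without Ctrl replicate 2 or Oxali replicate 2. Of the subunits of RPA, which coats single-stranded DNA, Rpa1 fell by 0.21 log2, and Rpa2 (−0.12) and Rpa3 (0.062) were not called.

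Lig1, the ligase that joins Okazaki fragments, rose by 0.19 log2. Fen1 was at 5.34 and 4.92 CPM in Ctrl and 3.82 and 3.53 CPM in Oxali (−0.48, SE 0.16, edgeR adjusted p = 0.0139), a call that DESeq2 did not make (adjusted p = 0.103) and that was lost without Ctrl replicate 1 or Oxali replicate 2. The nucleotide enzymes moved least. Rrm1, the large subunit of ribonucleotide reductase, rose by 0.086 log2 and Dut fell by 0.099, while Rrm2 (−0.073), the thymidylate synthase gene Tyms (−0.10) and the thymidine kinase gene Tk1 (0.12) were not called. Rrm2 was at 924 and 963 CPM in Ctrl and 907 and 887 in Oxali.

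The E2F factors and cyclins split as well. E2f1, an activator of these genes, rose from 48.7 and 43.3 to 55.7 and 54.1 CPM (0.26, edgeR adjusted p = 0.000415), and E2f2, another activator, fell from 35.5 and 36.3 to 29.9 and 31.6 CPM (−0.23, edgeR adjusted p = 0.00147). The length and GC offset took away the call of E2f1 (0.11, edgeR adjusted p = 0.0739). Of the repressor genes, E2f8 fell by 0.18 log2 and E2f7 was not called (0.033). Ccna2, the cyclin A of S phase and G2, went from 376 and 405 to 289.8 and 291 CPM and fell by 25.6% (−0.43, SE 0.040, edgeR adjusted p = 1.08e-08). As in 40.6% of all genes tested, both Oxali libraries lay below both Ctrl libraries. Of the E cyclins that act at the G1/S border, Ccne2 fell, from 58.4 and 57.6 to 48.3 and 48.6 CPM (−0.26, edgeR adjusted p = 7.81e-05), and Ccne1 did not pass the test (0.0037, interval −0.14 to 0.15).

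The largest change among the 47 genes was in Dtl, the substrate receptor of a ubiquitin ligase that removes Cdt1 from chromatin-bound PCNA. Dtl was at 97.2 and 99.8 CPM in Ctrl, 96.2 and 99.8 in IFN200 and 101 and 101 in IFN2000. It was at 162 and 167 CPM in Oxali, 160.2 and 160.3 CPM in Combo200 and 160.0 and 158 CPM in Combo2000. The 6 libraries with Oxali lay above the 6 without it. Oxali against Ctrl gave a 66.9% rise (0.74, SE 0.040, edgeR adjusted p = 3.25e-12). Uhrf1, which guides maintenance of DNA methylation behind the fork, fell by 0.20 log2.

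**Figure D2:**
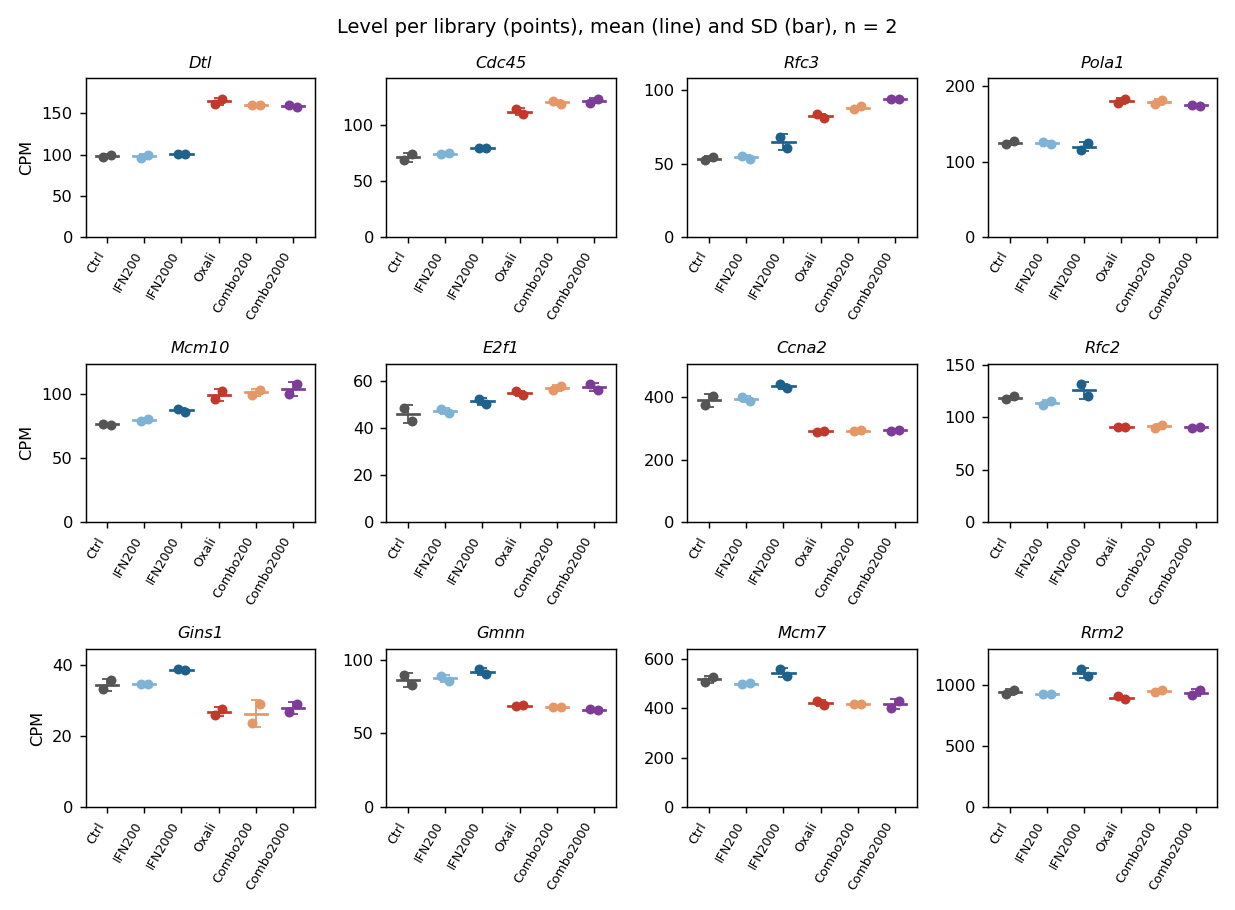
CPM of 12 of the genes in each library (points), by group, with the mean (line) and SD (bar) of 2 libraries and the y axis from 0. In Dtl, Cdc45, Rfc3, Pola1 and Mcm10 the 6 libraries with Oxali lie above the 6 without it, and in Ccna2, Rfc2, Gins1, Gmnn and Mcm7 below, while Rrm2 is highest in IFN2000.

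The effect of Oxali was then read in 3 comparisons that share no library: Oxali with Ctrl, Combo200 with IFN200 and Combo2000 with IFN2000. In Combo200 against IFN200, 13 of the 47 genes rose and 15 fell (36.5% and 33.5% of all genes), and in Combo2000 against IFN2000, 12 rose and 25 fell (38.5% and 33.8%). In all, 10 genes rose in all 3: Cdc45, Cdt1, Dtl, E2f1, Lig1, Mcm10, Pola1, Pole, Prim1 and Rfc3. A further 15 fell in all 3: Ccna2, Ccne2, E2f2, E2f8, Gins1, Gmnn, Mcm2, Mcm4, Mcm6, Mcm7, Pcna, Rfc1, Rfc2, Rfc5 and Rpa1. Of those followed gene by gene, Cdt1, E2f1 and Pcna lost the call in Oxali against Ctrl with the length and GC offset. Mcm2 and Pcna lost it with upper-quartile scaling. Lig1, Pole, E2f8, Mcm4, Mcm6, Mcm7, Rfc1, Rfc5 and Rpa1 were not followed there one by one. No single gene was followed under other settings in the comparisons of a combination with IFNγ. No gene was called in opposite directions. Another 17 were called in some of the comparisons, and 5 in none (Cdc6, Gins2, Pola2, Pold1 and Rpa3). Among all genes tested, 29.6% rose in all 3, 26.9% fell in all 3 and 16.3% were called in none.

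For the leading genes the values of the 3 comparisons stand side by side. Dtl rose by 0.74, 0.71 and 0.66 log2 in the order given, Cdc45 by 0.65, 0.69 and 0.62, and Pola1 by 0.53, 0.52 and 0.54. Rfc3 rose by 0.62, 0.70 and 0.54. The SE of these 12 values ran from 0.039 to 0.053. Among the genes that fell, Ccna2 gave −0.43, −0.43 and −0.57, Rfc2 −0.39, −0.32 and −0.48, and Gmnn −0.33, −0.37 and −0.47. In these 3 genes the fall was largest beside IFN2000, a difference that the interaction at 2000 pg tests and that did not pass there.

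**Figure D3:**
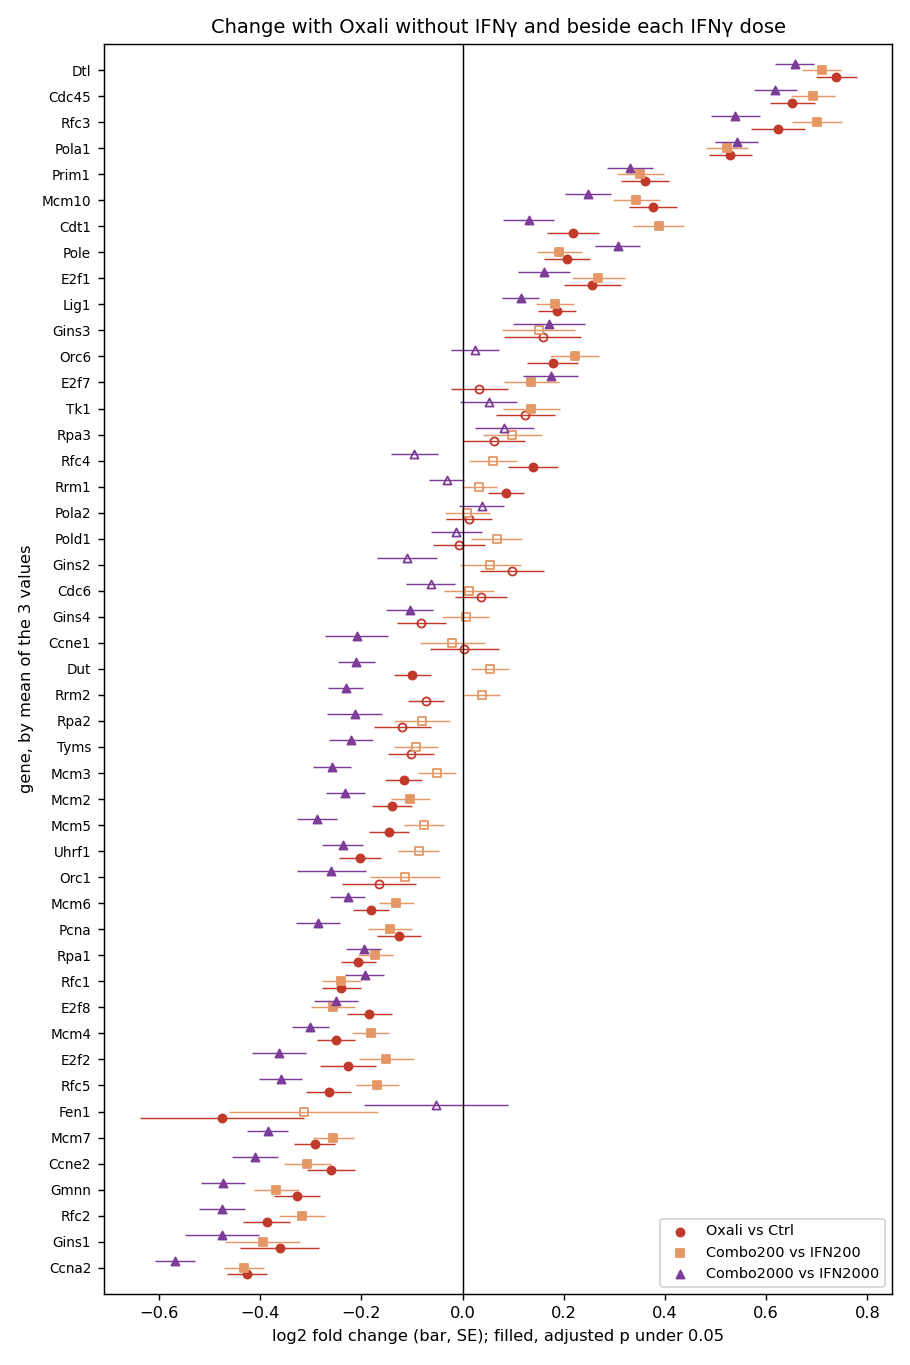
Log2 fold change with Oxali (x axis, bars are SE) of the 47 genes (y axis, sorted by the mean of the 3 values) in 3 comparisons that share no library, where filled markers passed an adjusted p of 0.05. Dtl, Cdc45, Rfc3 and Pola1 stand at the top in all 3, and Ccna2 stands lowest by the mean.

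Against Ctrl, the combinations gave the same kind of split. In Combo200, 13 genes rose and 17 fell (35.6% and 33.1% of all genes), and in Combo2000, 14 rose and 18 fell (35.7% and 33.5%). These 2 comparisons and the one of Oxali share the Ctrl libraries. In Combo2000 the largest rise was in Rfc3, to 93.7 and 93.8 CPM (75.4% above Ctrl, log2 0.81, SE 0.051, edgeR adjusted p = 3.13e-11). Cdc45 followed at 119.7 and 123 CPM (0.77, edgeR adjusted p = 5.51e-12), then Dtl (0.69) and Pola1 (0.48). The largest falls were in Ccna2, at 292 and 297 CPM (−0.41, edgeR adjusted p = 1.76e-08), Rfc2 (−0.39), Gmnn (−0.38) and Mcm7 (−0.31). Both labels match for the libraries of these comparisons.

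To ask what IFNγ did on its own, IFN200 and IFN2000 were compared with Ctrl. At 200 pg none of the 47 genes was called by edgeR's quasi-likelihood test, 1 had an unadjusted p under 0.05, and DESeq2 called 0. Over all 13177 genes 0.114% were called higher and 0 lower, and 801 genes had an unadjusted p under 0.05. All 47 intervals at 200 pg lay within 1.5-fold in either direction.

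At 2000 pg, 16 of the 47 genes rose (34.0%) and none fell, where 8.39% of all genes rose and 8.47% fell. At an unadjusted p under 0.05 there were 24 of the 47 genes, against 3898 of all 13177 genes. DESeq2 called 14 of the 47, all higher. The rises were small: the median over the 47 genes was 0.090 log2 against 0.00052 over all genes, and none of them reached 1.5-fold, where 1.64% of all genes were called at that size. They fell in several roles: the helicase genes Mcm2, Mcm3 and Mcm5, the activators Mcm10 and Cdc45, Pcna and the loader genes Rfc3, Rfc4 and Rfc5, the nucleotide genes Rrm2, Tyms and Dut, and Orc6, E2f1, Ccne1 and Ccna2. No gene of the primase and polymerase group was called (Pola1 −0.061, Prim1 0.083, Pole −0.082), and neither was Dtl (0.034).

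Ccne1 showed the largest rise. It was at 36.9 and 42.6 CPM in Ctrl and 51.5 and 45.8 CPM in IFN2000 (0.29, SE 0.065, edgeR adjusted p = 0.00505). The groups did not overlap, but the higher Ctrl library lay close to the lower IFN2000 library. Over all genes tested, 28.5% lay wholly above Ctrl in IFN2000 and 27.8% wholly below. Dut was at 399 and 399 CPM and 481 and 469 CPM (0.25, SE 0.037, edgeR adjusted p = 0.000139). Rrm2 was at 924 and 963 CPM and 1128 and 1071 CPM (0.22, SE 0.035, edgeR adjusted p = 0.000285). In both genes the IFN2000 libraries stood clearly apart from the 4 libraries of Ctrl and IFN200. Rfc3 (0.27) and Orc6 (0.24) completed the leading rises, and Mcm5 (0.23), Rfc4 (0.22) and Pcna (0.20) also rose.

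The count of rises at 2000 pg rested on single libraries. It was 5 without IFN2000 replicate 2, 6 without Ctrl replicate 1 and 24 without IFN2000 replicate 3, and no gene fell in any of them. IFN2000 replicate 2 is the library with T cell marker counts, and it stood higher in the 47 genes (median ratio to Ctrl 0.12 log2) than IFN2000 replicate 3 (0.064), whose T cell marker counts were 10. In both IFN2000 libraries the ratio to Ctrl fell with transcript length across 13043 genes (Spearman −0.35 and −0.19, a description across genes of 1 library each). With an offset for length and GC content 19 genes rose. The part of these features in the rise was not tested. Against IFN200, 20 genes rose in IFN2000 and none fell (11.3% and 11% of all genes). Without IFN2000 replicate 2 the count was 9 and without IFN200 replicate 1, the library with heart muscle counts, it was 10.

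**Figure D4:**
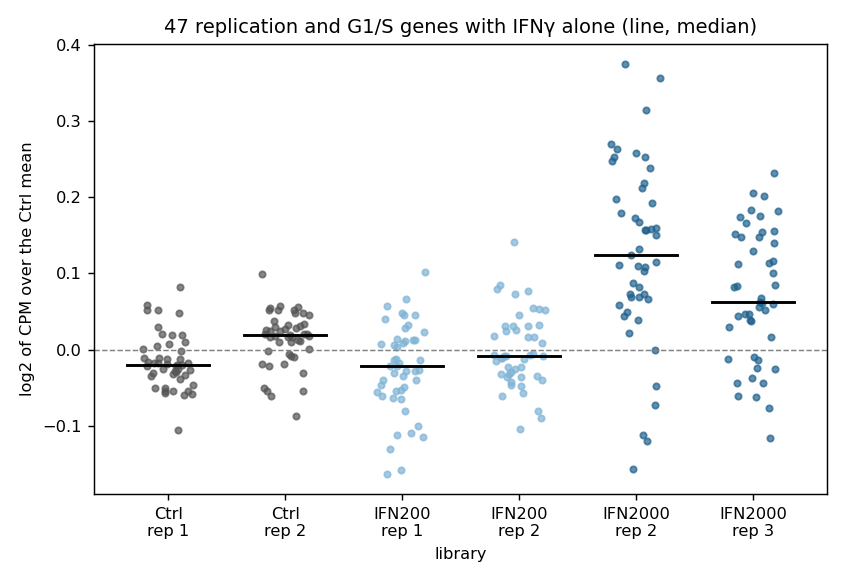
Log2 ratio of CPM to the Ctrl mean (y axis) of the 47 genes (points) in each library of Ctrl, IFN200 and IFN2000 (x axis), with the median as a line. The medians of the IFN2000 libraries are 0.12 and 0.064, and those of the other 4 libraries lie between −0.022 and 0.019.

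IFNγ on top of Oxali changed few of these genes. Combo200 against Oxali gave 1 call, Dut, which rose from 382 and 364 CPM to 429 and 423 CPM (0.19, SE 0.037, edgeR adjusted p = 0.00515), where 1.58% of all genes rose. Combo2000 against Oxali gave 2 calls, Dut (0.14, edgeR adjusted p = 0.0334) and Rfc3 (0.19, edgeR adjusted p = 0.0282), where 3.37% of all genes rose. At 2000 pg DESeq2, upper-quartile scaling and a fit of only the groups compared each left 1 call, and there was none without Ctrl replicate 1, Oxali replicate 2 or Combo2000 replicate 2. The Dut call with 200 pg was lost when Oxali replicate 2 or either Combo200 library was left out. Between the 2 combinations none of the 47 genes was called by edgeR or by DESeq2, and edgeR called 1.37% of all genes. At an unadjusted p under 0.05 in edgeR there were 2 of the 47, against 1221 of all 13177 genes.

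Whether IFNγ acted differently in the presence of Oxali was tested as an interaction, (Combo minus Oxali) minus (IFNγ minus Ctrl). At 200 pg none of the 47 genes was called by edgeR or DESeq2, and edgeR called 0.698% of all genes. At an unadjusted p under 0.05 in edgeR there were 3 of the 47, against 1304 of all 13177 genes. At 2000 pg also none of the 47 was called by either tool, and edgeR called 2.72% of all genes. An unadjusted p under 0.05 was found for 13 of the 47 in edgeR, against 2194 of all 13177 genes, and for 8 in DESeq2. At 2000 pg 38 of the 47 values lay below 0 and their median was −0.092, against 0.0056 over all genes. The smallest p-values were those of Rfc4 (−0.23, SE 0.068, edgeR adjusted p = 0.0746) and Rrm2 (−0.16, SE 0.050, edgeR adjusted p = 0.0945). Intervals of 46 of the 47 genes lay within 1.5-fold in either direction, Fen1 being the exception. Without IFN2000 replicate 3, 7 genes were called, all below 0.

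The neighbouring genes of the pathway were read from 4 further lists. Of 33 further replication genes, 8 rose and 14 fell with Oxali. Dna2, a nuclease and helicase that trims Okazaki fragments, fell from 35.8 and 38.9 CPM to 14.2 and 14.2 CPM (−1.39, SE 0.072, edgeR adjusted p = 1.64e-12), a change larger than that of any of the 47 genes. The histone chaperone gene Nasp (−0.86) and the origin-firing kinase gene Cdc7 (−0.18) fell too. Dscc1, of an alternative clamp loader, rose (0.75). Pold4, at a low level, rose by 0.61 (SE 0.19), from 3.73 and 3.14 CPM in Ctrl to 5.62 and 4.82 CPM in Oxali. Of 22 tested G1/S regulators (24 listed), 8 rose and 9 fell. Cdkn1a rose by 1.02 log2 (SE 0.060, edgeR adjusted p = 1.02e-11). Cdkn2b, at a low level, rose by 1.03 log2 (SE 0.23), from 1.28 and 1.47 CPM in Ctrl to 2.49 and 3.15 CPM in Oxali. Ccnd1 (0.36) and Rb1 (0.32) also rose. Skp2 (−0.67), Cdk6 (−0.57) and Cdk2 (−0.24) fell.

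Of 13 replication checkpoint genes, 2 rose, Clspn (0.35) and Wee1 (0.33), and 5 fell, Hus1 (−0.62) and Tipin (−0.40) the most, while the kinase gene Chek1 was not called (−0.066). Of 16 mitosis genes, 5 rose, led by Foxm1 (0.59) and Aurka (0.52), and 8 fell, led by Mybl2 (−0.52) and Plk1 (−0.42). Mki67, a proliferation marker, was at 643 and 599 CPM in Ctrl and 495 and 559.9 CPM in Oxali (−0.23, edgeR adjusted p = 0.0108). With Oxali, genes of every list moved in both directions. In IFN2000 against Ctrl the further replication genes gave 8 rises and 1 fall, the G1/S regulators 8 and 4, the checkpoint genes 1 and 0, and the mitosis genes 5 and 3.

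**Figure D5:**
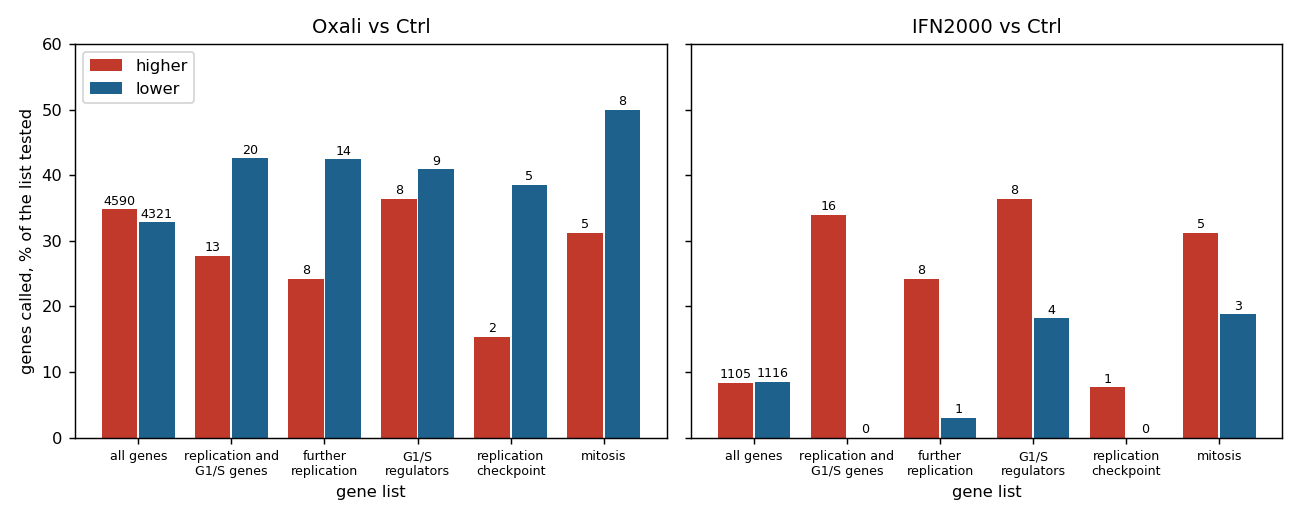
Share of tested genes called higher (red) or lower (blue) in each gene list (x axis) for Oxali and IFN2000 against Ctrl, with the number of genes above each bar. With Oxali each list has genes in both directions, and with IFN2000 the replication and G1/S genes have 16 higher and 0 lower.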

How the data were processed

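RNA-seq of 12 libraries in 6 groups of 2 was analysed. The deposited table holds raw counts of reads, with a row for each gene symbol. Per the labels, libraries came from a stranded mRNA kit; the study's methods name STAR for alignment and featureCounts for counting. The submitters' processing notes name STAR 2.7.3a, RSEM 1.3.0 and GRCm38. Strand use in counting is not given in the sources used here. Counting reads over genes gives long genes more counts, so levels between genes were compared only per kb.

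Counts were scaled by TMM and tested in edgeR 4.0.16 (R 4.3.3) with quasi-likelihood F tests in 1 model of 6 group means over 12 libraries, without covariates. The filterByExpr filter (minimum count 10, minimum total 15) kept 13177 of 55216 genes; 28300 had no count. The 13 contrasts were 11 group comparisons and 2 interactions. Calls were made at 0.05 on p-values adjusted by Benjamini-Hochberg in each contrast. SE is the log2 fold change over the square root of F, and intervals are 95%. The smallest two-sided p of an exact permutation of 2 against 2 libraries is 0.333, so calls rest on spread shared across genes. Positions and exon overlaps came from GENCODE M21 (GRCm38), where 53559 symbols matched.

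The 47 genes and the lists were chosen with earlier results of these data known. Named genes were the 4 largest called rises and falls in Oxali, IFN2000 and Combo2000 against Ctrl, 17 key genes, and the 6 largest called changes against the majority with Oxali. In other lists, 7 set genes and the 2 largest changes each way were named; further genes complete short counts and were named after their values were seen. Alternatives were other scalings, no filter, DESeq2 1.42.0, a length and GC offset (spline, 5 degrees of freedom), only the groups compared, leaving out each library, and a replicate block. The fitting code was tested on simulated data.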

Additional observations from a re-analysis of the deposited data

How the results depend on the processing

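With Oxali against Ctrl, 28 to 38 of the 47 genes were called when a library was left out and 30 to 38 under the other settings, within 1.5 times the reported 33. Replicate numbers showed no pairing of the libraries: of 21 same-numbered pairs none correlated above 0.1 (−0.046 to 0.045). Where 2 groups share both numbers, their 2 pairs give the same value by construction, so the 21 values are not all separate. With the replicate number as a block, 33 were called in Oxali against Ctrl, 10 in IFN2000 against Ctrl, 11 in IFN2000 against IFN200 and 0 in Combo2000 against Oxali. Combo2000 against Oxali gave 1 call with upper-quartile scaling, with only the groups compared, and with DESeq2. The interaction at 2000 pg gave 1 call with upper-quartile scaling, with no filter and with the length and GC offset.

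Medians that moved by more than the spread between libraries were, with upper-quartile scaling, −0.028 (Oxali against Ctrl), −0.019 (Combo200 against Ctrl), 0.026 (Combo2000 against Ctrl), 0.037 (Combo200 against IFN200) and −0.124 (interaction at 2000 pg). With the length and GC offset they were −0.027, −0.019, −0.047 (Combo200 against IFN200) and −0.161 (Combo2000 against IFN2000), and with the block added −0.027, −0.016, −0.040 and −0.161.

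Leaving out 1 library gave 5 to 24 calls in IFN2000 against Ctrl, 9 to 27 in IFN2000 against IFN200, 0 to 1 in Combo200 against Oxali, 0 to 2 in Combo2000 against Oxali and 0 to 7 in the interaction at 2000 pg. Without Ctrl replicate 1, Oxali replicate 2 or Combo2000 replicate 2, Combo2000 against Oxali gave 0 calls. The medians ran from −0.039 to 0.0055 (IFN200 against Ctrl), 0.067 to 0.142 (IFN2000 against Ctrl), −0.064 to −0.017 (Combo200 against Ctrl), −0.043 to 0.0088 (Combo2000 against Ctrl), −0.217 to −0.128 (Combo2000 against IFN2000), 0.088 to 0.163 (IFN2000 against IFN200) and −0.145 to −0.052 (interaction at 2000 pg).

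Signs of single genes were followed only for the named genes in Oxali, IFN2000 and Combo2000 against Ctrl. Among these, signs turned only in genes not called in the comparison concerned. With no filter Ccne1 in Oxali was at −0.0077. Upper-quartile scaling put Fen1 in IFN2000 at 0.0045 and Rrm2 in Combo2000 at 0.030. The length and GC offset put Rpa2 in IFN2000 at −0.013 and Rrm2 in Combo2000 at 0.020, and with the block −0.026 and 0.021. Leaving out 1 library gave, in Oxali, −0.096 to 0.113 for Ccne1 and −0.028 to 0.097 for Cdc6 (−0.024 the other negative value). In IFN2000 it gave −0.111 to 0.093 for Fen1, with 0.051 also above 0, and −0.020 and −0.0094 as the negative values of Rpa2, whose highest was 0.088. In Combo2000 it gave −0.022 to 0.190 for Ccne1, −0.216 to 0.085 for Fen1 and −0.048 to 0.022 for Rrm2, with 0.020 also above 0. The cause was not tested. Where it left a group with 1 library, that library was assumed to vary like the other groups.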
